A study of Homo sapiens with 5 samples.

Results

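The genes described here are 10 genes of the Wnt pathway, taken by name: the ligands WNT5A, WNT7A, WNT7B and WNT10A, the secreted antagonists DKK1, DKK3 and SFRP1, the negative regulator AXIN2, and the transcription factors LEF1 and TCF7L2. They were 10 of 17958 genes that a probe with exactly 1 gene symbol named on 3 of the arrays and of 18417 on the other 2. All 10 were measured in both sets. The cells were MCF12A, a human breast epithelial line that does not form tumours, and RNA was read on 5 Affymetrix Gene ST arrays, 1 array per group. Every culture was grown as a monolayer in DMEM/F12 with horse serum, epidermal growth factor, hydrocortisone, insulin and cholera toxin. The first set held an untreated culture, cells kept for 4 weeks in 2.5% ethanol and cells kept for 4 weeks in 1% acetaldehyde, the product of the first oxidation step of ethanol. The second set held a single clone selected in soft agar, where cells must grow without a surface to attach to, and its own control. The clone is labelled with 4 weeks of 2.5% ethanol, but the series text gives 2.5 mM, and the labels differ on whether exposure came before or after the selection. Its control is labelled as untreated yet also carries the soft agar tag.

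Wnt ligands are secreted lipid-modified proteins that bind Frizzled receptors. In the canonical branch, Frizzled acts with the co-receptors LRP5 and LRP6, beta-catenin escapes a destruction complex built on axin and APC, and factors of the TCF/LEF family switch on target genes, among them AXIN2, which feeds back on the pathway. Other ligands, WNT5A foremost, also act through ROR and RYK receptors on cell polarity and movement without beta-catenin. DKK1 blocks LRP5 and LRP6, and SFRP1 binds Wnt ligands outside the cell. In the breast, Wnt signals take part in duct growth and in the upkeep of basal progenitors.

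Both genes with the largest positive differences, DKK1 and WNT5A, have an upstream sequence in RefSeq (GRCh38.p14), shown here because their start regions differ in TCF/LEF letters. In all, 6 of the 10 members have an entry in that table. Each run is the 250 bases before a transcription start, written 5′ to 3′ on the gene's strand. Capitals mark matches on either strand. The patterns searched for the TCF/LEF motif were CTTTGA and, as a separate search, CTTTGT. For AP-1 the pattern was TGANTCA, for TEAD factors it was GGAATG, and for the TATA box it was TATAAA. The patterns did not overlap each other in the DKK1 window.

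DKK1, chr10:52314031-52314280, plus strand: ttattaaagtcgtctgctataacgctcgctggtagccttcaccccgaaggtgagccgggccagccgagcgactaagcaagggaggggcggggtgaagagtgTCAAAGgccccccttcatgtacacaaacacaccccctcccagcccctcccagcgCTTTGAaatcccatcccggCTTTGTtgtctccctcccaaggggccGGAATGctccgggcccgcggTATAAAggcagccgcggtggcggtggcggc
WNT5A, upper start, chr3:55487307-55487556, minus strand: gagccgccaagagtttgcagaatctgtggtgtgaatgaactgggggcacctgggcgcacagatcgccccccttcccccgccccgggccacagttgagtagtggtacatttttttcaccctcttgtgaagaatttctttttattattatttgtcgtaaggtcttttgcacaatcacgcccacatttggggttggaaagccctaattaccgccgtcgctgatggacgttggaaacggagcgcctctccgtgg
WNT5A, lower start, chr3:55481399-55481648, minus strand: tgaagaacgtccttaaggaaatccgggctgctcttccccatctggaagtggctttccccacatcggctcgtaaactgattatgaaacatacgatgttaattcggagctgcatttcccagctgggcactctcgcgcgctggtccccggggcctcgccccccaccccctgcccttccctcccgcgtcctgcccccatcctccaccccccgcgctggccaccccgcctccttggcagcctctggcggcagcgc

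The DKK1 window held CTTTGA 2 times, once as its reverse complement TCAAAG, and CTTTGT 1 time. It also held GGAATG 1 time and TATAAA 1 time, the latter from 30 to 25 bases before the start. Of 35116 RefSeq windows of that length, 22.8% held at least 1 of the TCF/LEF patterns and 0.584% held at least 3 matches. The cut of 3 equals the count in the DKK1 window, which was shown with its letters known. That share is a description and not a test. CTTTGA alone was in 11.2% of windows, CTTTGT in 13.7%, TGANTCA in 6.57%, GGAATG in 11.9% and TATAAA in 10.7%. Neither WNT5A window held any of these letters. Nor did the windows of WNT7A, WNT10A and LEF1. Of the 3 TCF7L2 windows, 1 held CTTTGT 1 time. A match describes the letters only, and binding was not measured.

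Intensities are the deposited values on a linear scale, and differences are log2 of an array over its own control. A gene is called past the floor where its brighter array stood at or above the median intensity of the set, 70.2 for the first set and 92.0 for the second. Deposited values, dim ones included, enter every log2 difference and every count of genes past 2-fold. For a dimmer array under the floor, the floor replaced its value in the fold, which is then a lower bound ("at least") and can be below 2 for a gene counted as past 2-fold. Median intensities were 69.98 to 70.6 on the first 3 arrays, and 94.0 and 89.9 on the clone's control and the clone. With 1 array per group there is no spread between cultures, so no test was possible, no difference below has a replicate check, and precision is limited by the number of arrays. In bulk RNA, a change in the share of cells that express a gene and a change in RNA per cell cannot be told apart.

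Of the 8 members past the floor in ethanol, 1 was higher and 1 lower by 2-fold or more, where 2.63% and 2.44% of all 11264 genes past the floor were. Of 7 in acetaldehyde, 1 was higher and 0 lower, against 1.03% and 0.0536% of 11194 genes. In the clone 2 of 9 were higher and 2 lower, against 14.7% and 5.83% of 12262 genes. WNT5A passed the floor there on the clone array only, so it could not have counted as lower. SFRP1 passed it there on the control array only, so it could not have counted as higher. The members were chosen with earlier results of these data known, so these counts are descriptions and not tests. The median log2 difference of the members past the floor was 0.00 in ethanol, 0.00 in acetaldehyde and -0.56 in the clone, beside 0.00, 0.00 and -0.02 over all genes. In ethanol 4 of the 8 members, and in acetaldehyde 3 of the 7, had a deposited value equal to the control's. The medians of 0.00 were therefore not read as a measured absence of change. All the calls lay in WNT5A and the antagonists, while AXIN2, LEF1 and TCF7L2 gave none. LEF1 was under the floor on every array and could not have been called. The ethanol and acetaldehyde comparisons share 1 control array, so their values are not independent of each other.

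**Figure D1:**
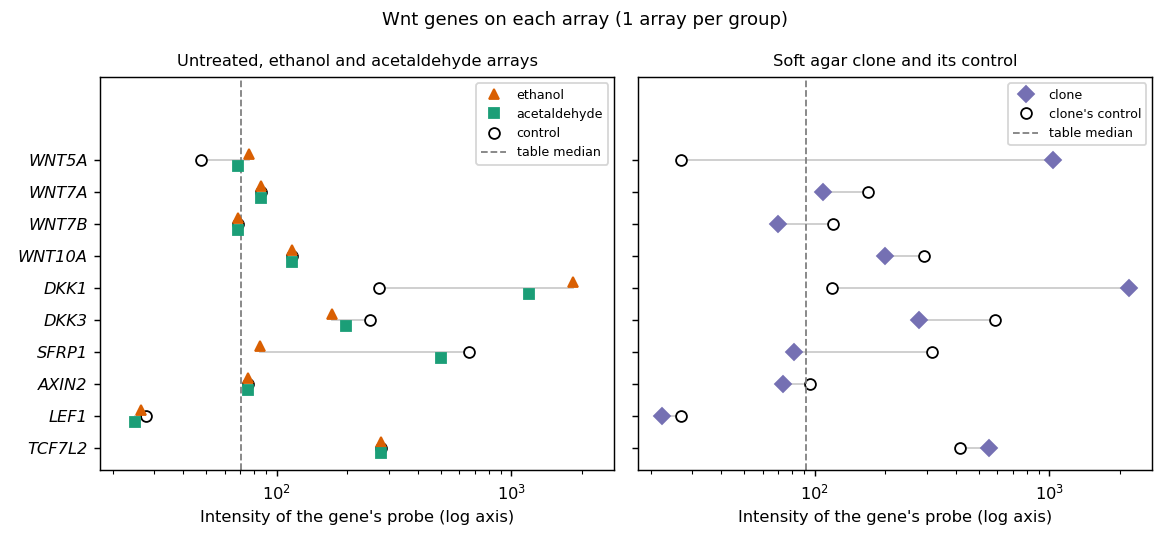
Intensity (log axis) of each member's probe on the 3 arrays of the first set (left) and on the clone and its control (right). Each symbol is 1 array, the grey line joins the arrays of a gene and the dashed line is the set's median; DKK1 lies far right of its control in all 3 comparisons, SFRP1 lies left of it in ethanol and in the clone, and WNT5A moves across the median between the clone's control and the clone.

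Of the 3 secreted antagonists, DKK1 was above its control on each exposed array, and SFRP1 and DKK3 were below theirs. DKK1, which encodes the antagonist that binds LRP5 and LRP6, had an intensity of 274 in the untreated culture, 1829 in ethanol and 1191 in acetaldehyde. It was 118 in the clone's control and 2189 in the clone. DKK1 was thus brighter on each exposed array than on the control of its set, and the ethanol array was brighter than the acetaldehyde array. The log2 difference was 2.74 in ethanol, a fold of 6.68. In acetaldehyde it was 2.12, a fold of 4.35. In the clone it was 4.21, a fold of 18.5. Counted from the highest, the DKK1 difference ranked 35 of 11264 genes in ethanol, 24 of 11194 in acetaldehyde and 30 of 12262 in the clone.

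SFRP1, a secreted Frizzled-related protein gene expressed by normal breast epithelium, had an intensity of 662 in the untreated culture, 84.6 in ethanol and 501 in acetaldehyde. It was 317 in the clone's control and 81.5 in the clone, which is under the floor. The low values were those of ethanol and of the clone, while acetaldehyde lay nearer its control than ethanol did. The log2 difference was -2.97 in ethanol, or 7.82-fold lower, and ranked 26 from the lowest. In the clone it was -1.96, or at least 3.44-fold lower, and ranked 208 from the lowest. In acetaldehyde it was -0.40, which did not reach 2-fold. It ranked 125 from the lowest of 11194 there, where differences were small throughout: the middle 95% of genes lay between -0.29 and 0.52.

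DKK3 is a member of the Dickkopf family that does not block LRP5 and LRP6 as DKK1 does. It had 251 in the untreated culture, 172 in ethanol and 198 in acetaldehyde. The clone's control had 585 and the clone 279. DKK3 was dimmer on every exposed array than on its control, but past 2-fold in the clone alone. The log2 differences were -0.55, -0.34 and -1.07, the last a fold of 2.09. This gene had a second probe, far dimmer, at 19.0, 16.9 and 18.8 in the first set and at 36.4 and 33.4 in the second. All 5 of those values lie under the floor, and its difference in the clone was -0.12. With the mean of both probes the clone's difference was -0.59, and with differences centred on the median of all probes it was -0.90, so the 2-fold call of DKK3 was lost under both. DKK1, SFRP1 and the other members had 1 probe each, and all 10 members were read from a probe with the same number in both sets.

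**Figure D2:**
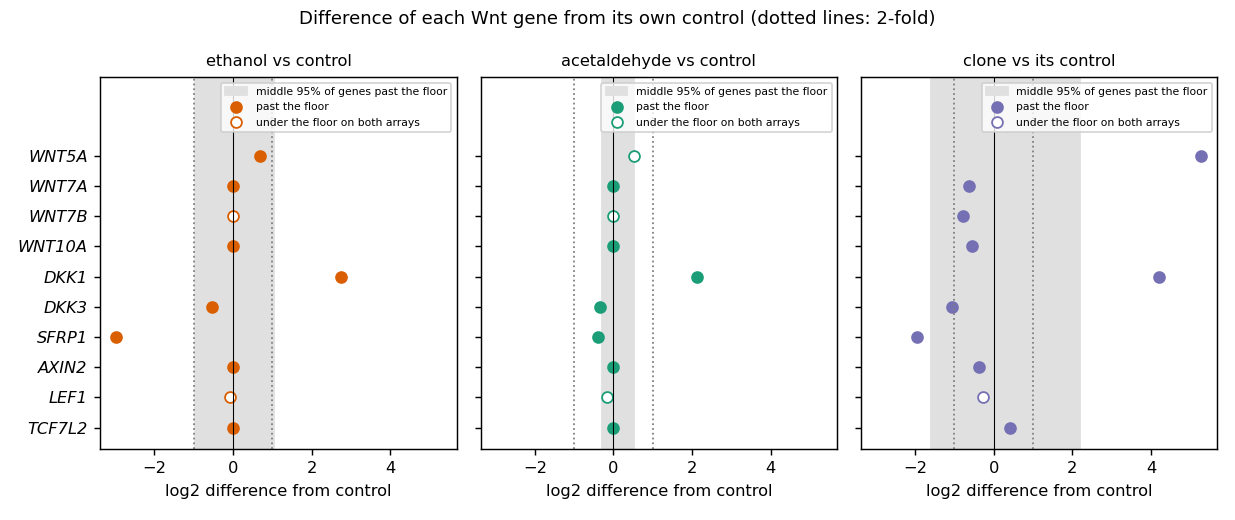
Log2 difference of each member from its own control for ethanol, acetaldehyde and the clone, 1 point per gene and pair of arrays, with open points where both arrays lie under the floor and grey bands for the middle 95% of all genes past the floor. DKK1 stands right of the band in all 3 panels, at 2.74, 2.12 and 4.21, SFRP1 left of it at -2.97, -0.40 and -1.96, and WNT5A right of it in the clone at 5.28.

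Among the ligands, WNT5A differed in the clone and the others stayed within 2-fold. WNT5A, the ligand best known for signalling without beta-catenin, had an intensity of 47.5 in the untreated culture, 76.0 in ethanol and 68.2 in acetaldehyde. The clone's control had 26.8 and the clone 1041. The clone was the bright array, and its control lay under the floor. The log2 difference in the clone was 5.28 as deposited, rank 8 from the highest of 12262 genes, and the fold was at least 11.3. With values under the floor raised to it, the difference was 3.50. In ethanol the difference was 0.68, from under the floor to just above it, and in acetaldehyde it was 0.52 with both arrays under the floor.

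WNT7A, WNT7B and WNT10A, ligands of epithelia, had equal values on all 3 arrays of the first set. WNT7A stood at 85.3 and WNT10A at 116, while WNT7B stood at 68.1, under the floor. AXIN2 was equal on these arrays too. Equal values, within 1e-06 on the log2 scale, were common in that set, where 38.4% of probes had the same value on all 3 arrays, and 4 of the 10 members did. An equal value here is a property of the deposited table shared with many probes, and was not read as a measured absence of change.

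In the second set the same ligands were dimmer in the clone. WNT7A had 168 in the control and 109 in the clone, a difference of -0.63. WNT7B had 120 and 69.5, a difference of -0.79. WNT10A had 293 and 199, a difference of -0.56. None reached 2-fold, and the size of these differences was shared by other ligands: of 9 other Wnt ligand genes past the floor, 8 were also lower in the clone, between -0.78 and -0.46, and WNT3 was at 0.27. The median over all probes was -0.17 in that comparison, and over all genes past the floor it was -0.02. Relative to the median of all probes, WNT7A, WNT7B and WNT10A lay at -0.46, -0.62 and -0.39.

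None of the members inside the cell was called at 2-fold in any comparison. AXIN2, the feedback scaffold of the destruction complex, had 75.1 on all 3 arrays of the first set. In the second set it had 95.8 in the control and 73.3 in the clone, a difference of -0.39, or -0.22 relative to the median of all probes. The equal AXIN2 values were not read as a measured absence of change. TCF7L2, a TCF factor found in most epithelia, had 278 on each array of the first set, with a difference of 0.00 in both comparisons. Its ethanol value was equal to the control's and was not read as a measured absence of change either. TCF7L2 had 417 in the clone's control and 554 in the clone, a difference of 0.41. LEF1, its relative, was under the floor on all 5 arrays, between 22.2 and 27.6, so no fold is given and it could not have been called.

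The genes whose differences were closest to those of DKK1 over the 3 comparisons, by Euclidean distance in log2 units among 10445 genes past the floor in all of them, were AOX1, RBMS3 and IFI44L, at 0.25, 0.46 and 0.57. AOX1 had differences of 2.99 in ethanol, 2.06 in acetaldehyde and 4.21 in the clone. Closest to SFRP1 were ABCA12, MARVELD2 and LAD1, at 0.18, 0.62 and 0.65. ABCA12 had -2.83, -0.43 and -1.84. These distances rest on 5 arrays, of which 1 control serves in 2 comparisons. No other member qualified for this ranking, which required a difference of at least 2-fold in at least 2 comparisons.

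**Figure D3:**
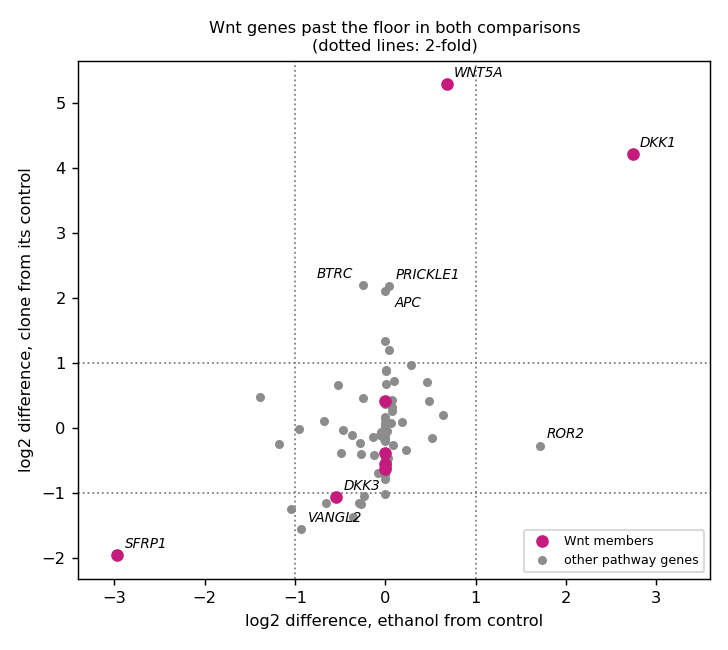
Log2 difference in the clone (vertical) against that in ethanol (horizontal) for 79 Wnt pathway genes past the floor in both comparisons, 8 of them members; the 2 comparisons share no array. DKK1 lies at the upper right (2.74 and 4.21), SFRP1 at the lower left (-2.97 and -1.96), WNT5A at the top (0.68 and 5.28) and ROR2 at the right (1.71 and -0.27).

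The rest of the pathway was read from 10 lists with 107 genes, of which 104 were measured in both sets. In ethanol 1 of 74 genes past the floor was higher and 4 were lower by 2-fold or more (1.35% and 5.41%). In acetaldehyde 0 of 73 were higher and 0 lower. In the clone 6 of 80 were higher and 9 lower (7.5% and 11.3%). Over all genes past the floor, the shares higher and lower were 2.63% and 2.44% in ethanol and 1.03% and 0.0536% in acetaldehyde. In the clone they were 14.7% and 5.83%. These shares also stand beside the counts of single lists below. ROR2 in ethanol and PRICKLE1, APC, BTRC and MMP7 in the clone passed the floor on the exposed array only. None of these could have counted as lower. FZD3, DAAM1 and RNF43 in ethanol and RNF43 and BAMBI in the clone passed it on the control array only. None of those could have counted as higher. The shares over all genes were counted by the same rule. The medians over the pathway genes past the floor were 0.00, 0.00 and -0.17, beside 0.00, 0.00 and -0.02 over all genes past the floor. Over all probes, dim ones included, the clone's median was -0.17.

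Receptors differed one by one. Of 10 Frizzled and LRP genes past the floor, 1 was at least 2-fold lower in ethanol and 0 in the other comparisons. It was FZD3, a Frizzled receptor gene, at 87.3 in the control and 36.4 in ethanol, at least 1.24-fold lower, with 66.5 in acetaldehyde. FZD6, another Frizzled receptor gene, had 1534 in the control, 961 in ethanol and 1148 in acetaldehyde. In the second set FZD6 was not lower, at 826 in the control and 887 in the clone, a difference of 0.10. LRP6, the co-receptor that DKK1 binds, had 275 in the control, 277 in ethanol and 261 in acetaldehyde. LRP6 had 201 in the clone's control and 366 in the clone, a difference of 0.87. KREMEN1, which encodes a receptor that acts with DKK1, had 454 in the clone's control and 201 in the clone, 2.26-fold lower.

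Of 13 genes of co-receptors outside the canonical branch and of planar cell polarity, 1 was higher and 2 lower by 2-fold in ethanol, and 2 were higher and 2 lower in the clone. ROR2, a receptor tyrosine kinase that binds WNT5A, had 63.3 in the untreated culture, 207 in ethanol and 105 in acetaldehyde. It was thus at least 2.95-fold higher in ethanol. In the second set ROR2 had 96.5 in the control and 79.9 in the clone, a difference of -0.27, with the clone's value under the floor. On the clone array, where WNT5A was bright, ROR2 was thus not above its control. RYK, another WNT5A receptor gene, had 1070 in the clone's control and 2447 in the clone, 2.29-fold higher, but 1504 in the untreated culture and 1546 in ethanol. PRICKLE1, a cytoplasmic polarity gene, was at least 3.69-fold higher in the clone. The membrane polarity genes VANGL2 and CELSR2 were 2.93-fold and 2.21-fold lower there. In ethanol, DAAM1, a formin that acts with Dishevelled, was at least 1.38-fold lower and MCC, a negative regulator of beta-catenin, 2.27-fold lower.

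Of 4 R-spondin pathway genes past the floor in ethanol and 5 in the clone, 1 was at least 2-fold lower in each and 0 higher. It was RNF43, which encodes a ubiquitin ligase that removes Frizzled from the membrane and is itself a Wnt target. RNF43 had 120 in the untreated culture, 58.4 in ethanol and 81.4 in acetaldehyde, with a difference of -1.04 in ethanol. It had 137 in the clone's control and 57.6 in the clone, a difference of -1.25. Both low values were under the floor, so the folds were at least 1.71 and at least 1.49. Of the other 11 secreted antagonist genes, only SFRP5 and SOST were past the floor in the first set, with equal values on its 3 arrays. In the second set 3 of the 11 were past it, and none reached 2-fold.

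The listed genes of Dishevelled, the destruction complex, beta-catenin and its partners stayed within 2-fold in the first set. MCC and DAAM1, lower in ethanol, were counted above with the polarity genes. Of 13 Dishevelled and destruction complex genes, 0 were past 2-fold in ethanol and 0 in acetaldehyde. In the clone 2 were higher, APC, the scaffold of the destruction complex, at least 1.61-fold and BTRC, which marks beta-catenin for breakdown, at least 2.46-fold. Both passed the floor on the clone array only, so neither could have counted as lower. Of 13 genes of beta-catenin, TCF partners and co-repressors past the floor in ethanol, 0 reached 2-fold. CTNNB1, the beta-catenin gene, had 1666 in the untreated culture, 2297 in ethanol and 1950 in acetaldehyde, and 1928 and 3129 in the clone's control and the clone. Of 11 such genes in the clone, 1 was higher and 2 lower. CHD8, a chromatin remodeller that restrains beta-catenin, was 2.51-fold higher, and PYGO2, a co-activator, and CTNNBIP1, an inhibitor of beta-catenin, were 2.23-fold and 2.07-fold lower.

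Known Wnt target genes did not go one way. Of 10 past the floor, 1 was at least 2-fold lower in ethanol, RNF43, and 0 higher. In the clone 1 of 16 was higher and 4 were lower, and the median of the 16 was -0.40. MMP7, the matrilysin gene, had 26.6 in the clone's control and 436 in the clone, at least 4.74-fold higher. SP5, a transcription factor, was 2.03-fold lower, BAMBI, a pseudoreceptor for TGF-beta family ligands, at least 2.93-fold lower and SOX9, a progenitor transcription factor, 2.59-fold lower. RNF43 was the remaining lower gene. MYC had 2260 in the untreated culture, 2191 in ethanol and 2182 in acetaldehyde, and 2068 and 1989 in the second set. CCND1, the cyclin D1 gene, had 794 in the clone's control and 1265 in the clone, a difference of 0.67. In the first set, the differences of the target genes past the floor lay between -1.04 and 0.02 in ethanol. They lay between -0.56 and 0 in acetaldehyde.

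**Figure D4:**
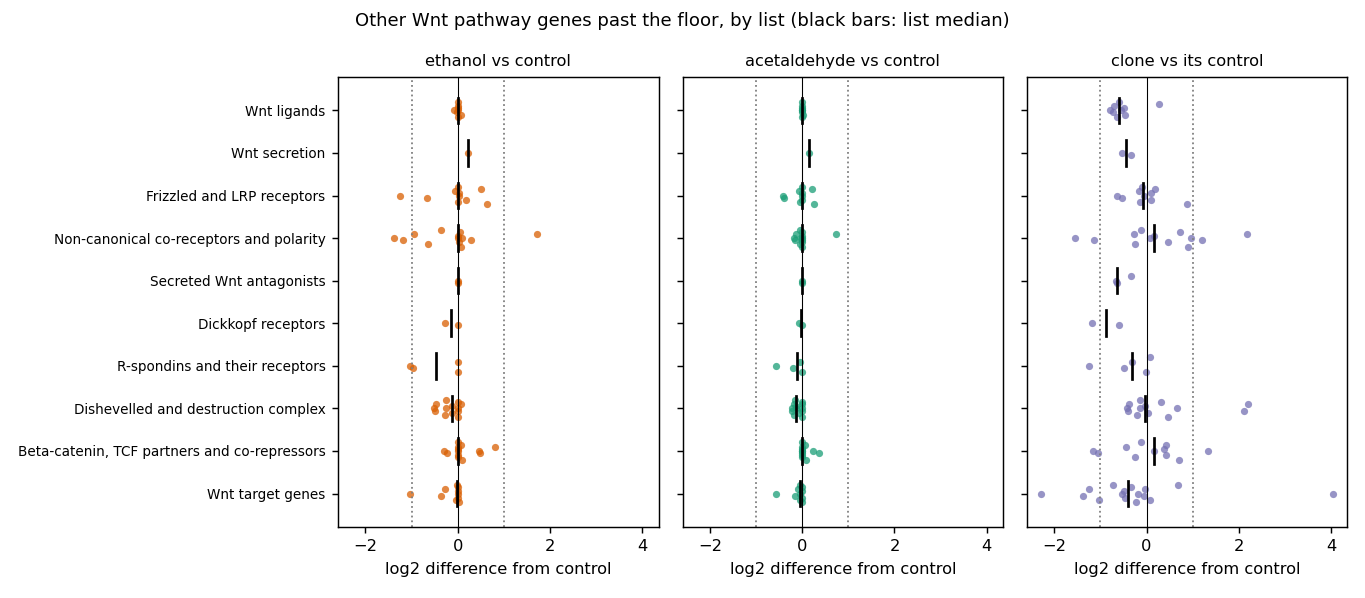
Log2 difference from control of the other Wnt pathway genes past the floor, by list (rows) and comparison (panels); each point is 1 gene and 1 pair of arrays, black bars are list medians and RNF43, like 5 other genes assigned to more than 1 list, is a target and an R-spondin pathway gene. Points in the acetaldehyde panel all lie within 2-fold, and the clone panel has the widest spread, up to MMP7 at 4.04.

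The cultures were checked against breast epithelial markers, of which 7 of 9 were measured. All 7 were past the floor in both controls, between 607 and 6056 in the first and between 378 and 12956 in the second. In ethanol 4 of the 7 were at least 2-fold lower and 1 higher, beside 2.44% and 2.63% of all genes past the floor. The higher one was KRT8, at 1474 in the control and 3068 in ethanol, while KRT18 had 986 and 1004. The summed intensity of the 7 was 8325 against 13136. In acetaldehyde 0 were lower and 0 higher, and the sum was 13829. In the clone 5 of 7 were lower and 0 higher, beside 5.83% and 14.7% of all genes, with a sum of 10029 against 25440. CDH1, EPCAM and CDH3 were under the floor there. KRT8 and KRT18 were not lower, at 3765 and 1380 in the clone's control and 3921 and 1589 in the clone. SFRP1 was low on the same arrays, ethanol and the clone, and the part of these markers in its difference was not tested.

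Of the 6 fibroblast markers past the floor in the clone, where WNT5A was bright, 4 were higher and 0 lower by 2-fold or more, beside the 14.7% of all genes higher there, and the sum over all 8 was 1971 against 844 in its control. The higher ones were COL1A1, COL3A1, DCN and FAP. DCN had 45.3 in the control and 167 in the clone, and FAP had 32.9 and 287. Both passed the floor on the clone array only, so neither could have counted as lower. COL1A2 had 142 in the control and 123 in the clone, PDGFRB had 136 and 103, and PDGFRA and LUM were under the floor on both arrays. In ethanol and in acetaldehyde 1 of 4 was higher, DCN, beside 2.63% and 1.03% of all genes. DCN was under the floor in the untreated culture. The sums were 604 and 584 against 497. Endothelial markers had 1 of 5 past the floor in the clone comparison, KDR, and that on the clone array only. Their sum was 462 against 280. In the first set 0 of 5 were past it, and the sums were 194 in the control, 205 in ethanol and 194 in acetaldehyde. For leukocyte markers, 4 of 5 measured, and adipocyte markers, 4 of 4, no gene reached 2-fold in any comparison, PTPRC, CD3E, ADIPOQ and LEP lay under the floor on every array, and the sums in the clone were 257 against 275 and 291 against 337. In the first set the leukocyte sums were 188 in the control, 188 in ethanol and 187 in acetaldehyde, and the adipocyte sums 191, 221 and 197. No marker was at 0, and the part of these markers in the WNT5A and DKK1 differences was not tested.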

How the data were processed

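RNA from 5 MCF12A cultures, 1 per group, was read on Affymetrix Gene ST arrays. The authors deposited intensity values, linear and not log2, made with RMA according to the submitters' processing notes; its version and settings are not given in the sources used here. The values came as a set of 3 arrays and a set of 2 on another array design, taken to be normalised apart from each other, so arrays were compared within a set only. The labels' protocols tie 1 design to 1-week and the other to 4-week exposures, which leaves the clone's design unexplained.

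Log2 intensities were taken in Python 3.11.15 with pandas 2.3.3. Probes were named from platform annotation: 19181 and 19460 of 33297 had exactly 1 symbol, 2055 and 1754 several and 12061 and 12083 were unlisted. RefSeq gene records (GRCh38.p14) matched 19143 and 19429, and 0 were renamed. A gene with several probes was read from the brightest by the set's mean. The floor is a set's median, not a measured background. Equal values in 43.9% of probes in ethanol and 48.2% in acetaldehyde, against 1.02% in the clone, mean that counts of the sets are not on one footing. With 1 array per group no test was run. No list was tested, and the calculations were tested on simulated data.

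The members and all lists were chosen with earlier results of these data known. Named genes are the members, up to 4 pathway genes each way past 2-fold per list and comparison, the 3 genes closest to a member, and markers; CTNNB1, MYC, CCND1, FZD6, LRP6, WNT3, SFRP5 and SOST were named outside that rule after their values were seen. PORCN, CSNK1E and TCF7 had no probe with exactly 1 symbol and were not analysed here. Other settings tried were the floor, the fold, centring, repeated quantile normalisation, a lowess correction, other probes and raising dim values to the floor.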

Additional observations from a re-analysis of the deposited data

How the results depend on the processing

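No paired analysis was possible because each group has 1 array, and for the same reason no replicate could be left out. The 2-fold calls of DKK1 in all 3 comparisons, of SFRP1 in ethanol and the clone and of WNT5A in the clone kept their direction and their side of 2-fold under every alternative run that recomputed the difference: DKK1 between 2.73 and 2.74 in ethanol, 2.11 and 2.12 in acetaldehyde and 4.17 and 4.37 in the clone, SFRP1 at -2.97 in ethanol and between -1.98 and -1.78 in the clone, and WNT5A in the clone between 3.50 and 5.44. Several of these runs could not move the values. DKK1, SFRP1 and WNT5A have 1 probe each, so the choice of probe changed nothing. Centring changed nothing in the first set, where the median over all probes was 0. Raising dim values could not touch DKK1, or SFRP1 in ethanol, which lay above the floor. With values under the floor raised to it, the uncalled WNT5A differences were 0.11 in ethanol and 0 in acetaldehyde. No called value reversed. At 1.5-fold, 2 of 8 members were higher in ethanol and 4 of 9 lower in the clone. Of 74 other pathway genes, 3 were higher and 8 lower in ethanol, and of 73, 1 was higher in acetaldehyde. Of 80 in the clone, 13 were higher and 19 lower. Over all genes past the floor, the 1.5-fold shares were 5.30% higher and 5.11% lower in ethanol. They were 2.16% and 0.411% in acetaldehyde and 25.6% and 15.2% in the clone. At 3-fold, 1 member and 1 other pathway gene were lower in the clone and 0 other genes lower in ethanol. Of all genes past the floor, 2.52% were lower at 3-fold in the clone and 1.15% in ethanol. Centring left 1 member and 5 other genes lower in the clone, and the mean or the dimmest of a gene's probes left 1 member. DKK3 was then at -0.90, -0.59 and -0.12. The shares of all genes lower in the clone under these settings were 4.44%, 5.77% and 5.81%. Other genes lower in ethanol numbered 2 with a floor 1.5 times higher and 1 with dim values raised to it. Of all genes past the floor, 2.77% and 2.11% were lower in ethanol under those settings. These counts follow from the thresholds; the cause was otherwise not tested. Signal limits LEF1, under the floor on all 5 arrays, and WNT7B and WNT5A in the first set.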
